A study of Caenorhabditis elegans with 2 samples.

Results

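Isolated CEC-7 peaks were single regions of CEC-7 occupancy, at most 5000 bp wide, that stood alone on a Caenorhabditis elegans chromosome. They were selected on 2 measured values of the deposited peak list, a width of at most 5000 bp and a distance of more than 5000 bp, edge to edge, to the nearest peak of the whole list. This gave 590 isolated peaks of 4116 in all, that is 14.3% of the peaks and 11.1% of the bases inside a peak. They were set against the 2895 peaks of the same width limit that had a neighbour within 5000 bp, called non-isolated here. The other 631 peaks of the list were wider than 5000 bp, and 112 of them were also more than 5000 bp from any other peak.

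The peaks came from chromatin immunoprecipitation and sequencing (ChIP-seq) of CEC-7, encoded by Y37D8A.11, with an affinity-purified rabbit polyclonal antibody. There was 1 ChIP library and 1 library of input DNA, each from whole hermaphrodites of the strain fem-2(b245), genotype fem-2(b245)III, labelled as young adults with a germ line and kept at 20 °C. The growth protocol speaks of gravid adults instead, so germ line, somatic tissue and embryos may all have contributed chromatin. Both libraries carried the fem-2 mutation, and no animals with a wild-type fem-2 gene were analysed here. The input entered no value below.

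CEC-7 is a chromodomain protein. In several members of this group the chromodomain binds methylated tails of histone H3, which mark active or silent chromatin depending on the residue. FEM-2 is a protein phosphatase of the sex determination pathway that promotes male fate. Chromatin marks of active genes in C. elegans often form domains that follow the gene bodies, and many germline and housekeeping genes lie close together on the autosomes. The X chromosome is largely silent in the germ line.

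With 1 ChIP library there was no biological or technical replicate. All differences below are therefore differences between sets of peaks in 1 experiment, with no test and no error between animals. The list gave a score from the authors' peak caller for each peak, with no unit stated. It ran from 50 to 3100 over the list and was used to rank and describe peaks within it. Read depth is unknown, and occupancy too weak for the authors' cutoff was not detectable. Positions are those of the WormBase assembly WS220, 1-based. No gene annotation or sequence of that assembly was used here, so no gene is named for any peak.

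Isolation was defined by the distance, which is given here as a description. The nearest peak was at a median of 14027 bp from an isolated peak, with quartiles of 8173 and 27352 bp, and at a median of 521 bp from a non-isolated peak, with quartiles of 176 and 1398 bp. Of the isolated peaks, 379 (64.2%) had no other peak within 10000 bp, 217 (36.8%) none within 20000 bp and 69 (11.7%) none within 50000 bp. The empty stretches on the 2 sides of a peak were unequal. Among the 588 isolated peaks with a neighbour on each side, the farther neighbour was at a median of 44089 bp, and the ratio of the farther to the nearer distance had a median of 2.47 with quartiles of 1.499 and 4.49. The nearer neighbour lay to the left of 276 isolated peaks and to the right of 312.

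**Figure D1:**
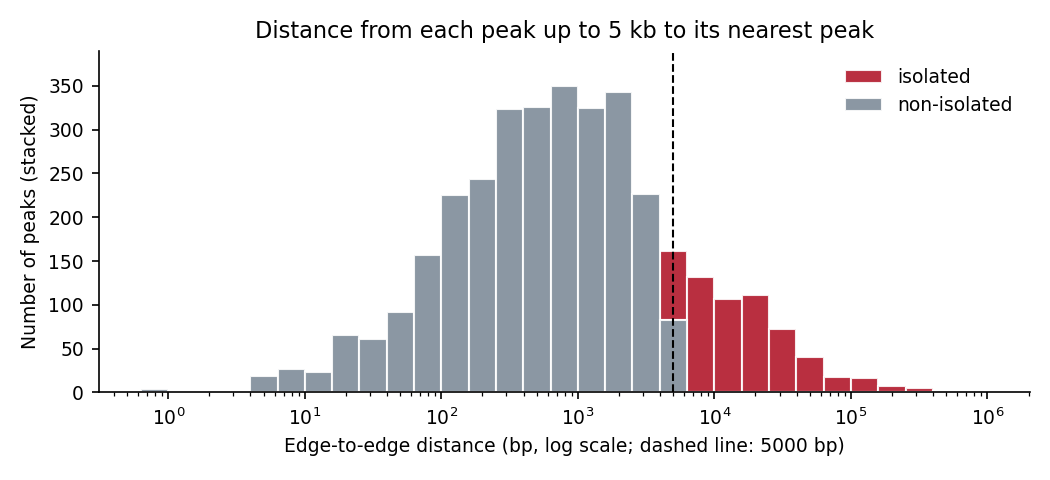
Number of peaks up to 5 kb by the distance to the nearest peak of the whole list, edge to edge, on a log axis with bars stacked. The dashed line marks 5000 bp, the limit that separates isolated peaks (median 14027 bp) from non-isolated peaks (median 521 bp), and the distribution falls across it without a gap.

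The limit did not lie in a gap of the distribution, and the peaks on either side of it had scores in the same range. Just inside were a pair of peaks on chromosome I, at 450023 to 451686 with a score of 68.98 and at 456688 to 458985 with a score of 234, that lay 5001 bp from each other. The next was a peak on chromosome V at 17955754 to 17956875, 5076 bp from its neighbour, with a score of 78.3. Just outside were a peak on IV at 3247081 to 3249276, 4978 bp from its neighbour with a score of 125, and peaks on I and III, each 4974 bp from its neighbour, with scores of 212 and 294. By width, the members closest to the limit measured 4964, 4955 and 4952 bp with scores of 814, 521 and 420. The isolated peaks just beyond it measured 5010, 5010 and 5028 bp with scores of 1358, 417 and 986.

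Linking all peaks that lay within 5000 bp of each other turned the list into 1656 separate loci. Isolated peaks were 590 of them, or 35.6%, which is a larger share of the loci than of the peaks or of the covered bases. That it exceeds the share of the peaks follows from the linking, which joins only peaks with a neighbour within 5000 bp. A further 112 loci were single peaks over 5 kb. The other 954 loci joined 2 or more peaks and held 82.6% of the covered bases, and 26 of them joined 10 or more. The isolated peak was the most frequent kind of locus on chromosome V, where it made up 150 of 296 loci (50.7%), and it made up 16 of 24 loci (66.7%) on X. On III it made up 90 of 337 loci (26.7%), the lowest share of any chromosome. The shares were 32.1% on I, 32.0% on II and, highest of these, 36.4% on IV.

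The density of isolated peaks differed less between the 5 autosomes than that of non-isolated peaks. By the definition, crowding limits the number of isolated peaks, so this contrast is partly set by the rule and is a description. Per Mb of chromosome extent, taken as the end of the last peak, there were 8.23 isolated peaks on I, 7.19 on V, 6.59 on IV, 6.54 on III and 6.23 on II. For the non-isolated peaks the order began with III at 49.8, followed by I at 46.8, II at 35.3, IV at 33.8 and V at 16.9. The highest autosomal density was 1.32 times the lowest for isolated peaks and 2.94 times the lowest for non-isolated peaks. Chromosome III, which led in non-isolated peaks, was in isolated ones behind I, V and IV, and chromosome V, the poorest autosome in non-isolated peaks, was behind I alone. The place of V was not stable. With a distance over 10000 bp it was the highest of the 5 autosomes, at 5.04 isolated peaks per Mb against 4.43 over all autosomes. With a distance over 2000 bp it had 10.9 isolated peaks per Mb, against 12.7 over all autosomes, and among peaks at or above the median score, with isolation recomputed, 5.08 per Mb, against 6.78, in both cases the lowest of the 5 autosomes.

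**Figure D2:**
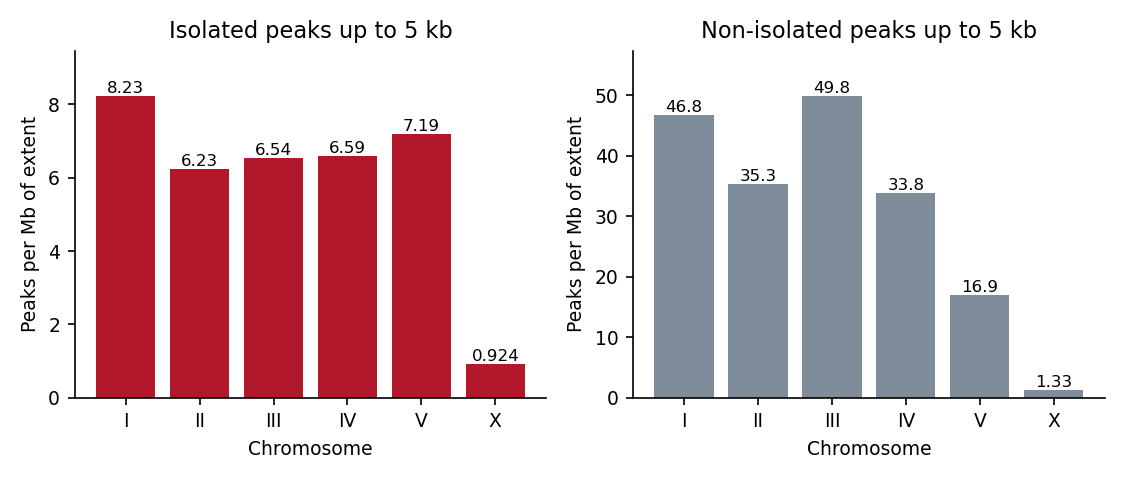
Peaks up to 5 kb per Mb of chromosome extent for isolated peaks (left) and non-isolated peaks (right), each with its own axis from 0. Isolated peaks ranged from 6.23 to 8.23 per Mb over the autosomes and non-isolated peaks from 16.9 to 49.8 per Mb, with X lowest in both.

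In numbers, 150 of the 590 isolated peaks (25.4%) lay on V, 124 (21.0%) on I, 115 (19.5%) on IV, 95 (16.1%) on II, 90 (15.3%) on III and 16 (2.71%) on X. Chromosome V made up 20.9% of the summed extents and held 25.4% of the isolated peaks, against 12.2% of the non-isolated peaks. Its share of the isolated peaks was 27.7% with a distance over 10000 bp and 21.2% with a distance over 2000 bp. Among peaks at or above the median score, with isolation recomputed on that shorter list, it was 18.6% of 569 isolated peaks, below its share of the extents. That set is not the higher-scored part of the 590. Chromosome III made up 13.8% of the extents and held 15.3% of the isolated peaks, against 23.7% of the non-isolated peaks. Of all peaks up to 5 kb, 29.8% were isolated on V and 41.0% on X, and on the other autosomes the share went from 11.6% on III over 15.0% on I and on II to 16.3% on IV. Over the list it was 16.9%. By the definition, this share is tied to how crowded a chromosome is.

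At a finer scale the numbers varied in both sets. Each of the 80 full autosomal windows of 1 Mb contained between 1 and 17 isolated peaks, with a median of 7 and quartiles of 4.75 and 9. The same windows contained 0 to 101 non-isolated peaks, with a median of 34 and quartiles of 19 and 46. The standard deviation over the windows was 0.46 times the mean of 6.95 for isolated peaks and 0.58 times the mean of 34.8 for non-isolated peaks. The window from 7 to 8 Mb on III had the most isolated peaks, 17, among 62 peaks in all. It was followed by the window from 1 to 2 Mb on I with 14 of 89 peaks and by that from 6 to 7 Mb on II with 13 of 46.

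The number of isolated peaks was lowest where peaks were few. The 12 autosomal windows with under 20 peaks had a mean of 4.25 isolated peaks. The 19 windows with 20 to 39 peaks had 8.16, the 19 with 40 to 59 had 7.42, the 22 with 60 to 79 had 6.95, and the 8 with 80 or more had 7. Because the total includes the isolated peaks and crowding limits them, this relation is a description of the list. The share of isolated peaks among those up to 5 kb went down over the same windows, at 32.7%, 27.6%, 17.6%, 13.2% and 8.48%.

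**Figure D3:**
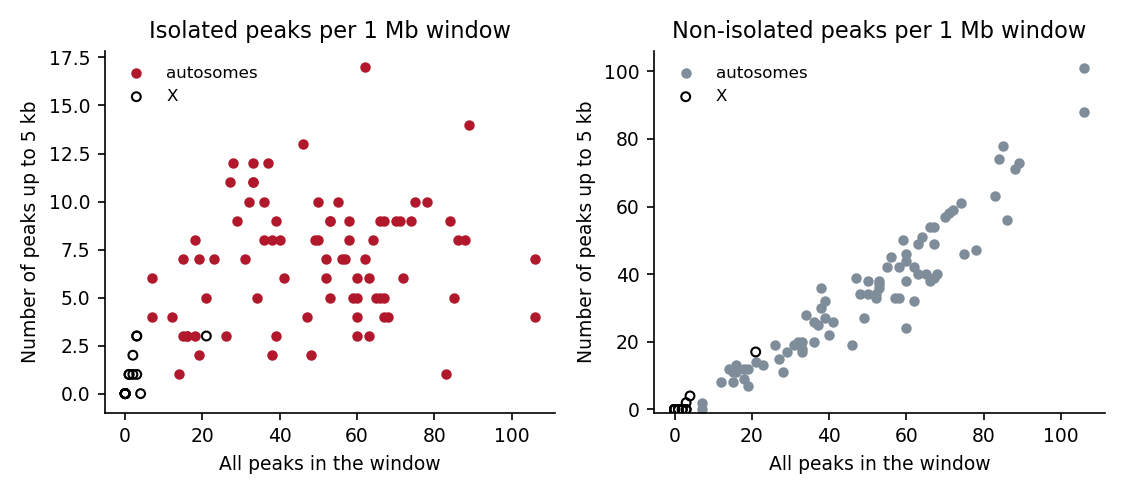
Isolated peaks (left) and non-isolated peaks (right) in each full 1 Mb window against all peaks in that window, with filled points for autosomes and open circles for X. Autosomal windows held 1 to 17 isolated peaks over the range of totals, whereas the counts of non-isolated peaks climb with the total up to 101. The total includes both kinds and is mostly non-isolated peaks, so this contrast is partly set by the axis and the rule.

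Along the autosomes the isolated peaks lay more often in the middle than the non-isolated peaks did. Each chromosome was divided into 3 equal segments by extent, which do not follow the borders between the repeat-rich arms and the centre. The central segment held 219 of 574 isolated autosomal peaks (38.2%) and 795 of 2872 non-isolated ones (27.7%), and 29.4% of all autosomal peaks up to 5 kb. Of all 4075 autosomal peaks of any width it held 1351, among them 337 over 5 kb. Without a width limit, 58.2% of the isolated and 68.6% of the non-isolated autosomal peaks lay in the outer segments. In each of the 5 autosomes the central share was larger for isolated peaks. It was 43.3% against 23.3% on III, 40.0% against 26.8% on II, 40.0% against 28.9% on V, 37.4% against 29.8% on IV and 31.5% against 30.2% on I, the chromosome where the shares were closest. The density of isolated peaks was 7.97 per Mb centrally and 6.46 per Mb in the outer segments, and that of non-isolated peaks was 28.9 per Mb centrally and 37.8 per Mb outside. The difference in central share was not seen once peaks below the median score were dropped and isolation was recomputed. This gave 569 isolated peaks up to 5 kb, a set other than the stronger members of the 590. In these recomputed sets, 65.7% of the isolated and 64.5% of the non-isolated autosomal peaks lay in the outer segments. As first defined, isolated autosomal peaks had a median score of 193 centrally and 147 outside, and non-isolated ones 205 and 153.

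With each autosome cut into 10 bins of equal length, isolated peaks were most frequent in bin 6 from the left, with 13.4% of the isolated and 8.57% of the non-isolated peaks, and in bin 5, with 11.7% of the isolated and 7.38% of the non-isolated peaks. They were least frequent in bin 8, with 7.32% of the isolated and 11.5% of the non-isolated peaks, and in bin 1, with 7.67% of the isolated and 12.2% of the non-isolated peaks. Apart from these, isolated peaks also had the larger share in bin 2, at 10.8% against 9.85%, and the smaller in bin 9, at 8.36% against 11.3%. At the right end, bin 10 held 10.98% of the isolated and 11.4% of the non-isolated peaks.

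**Figure D4:**
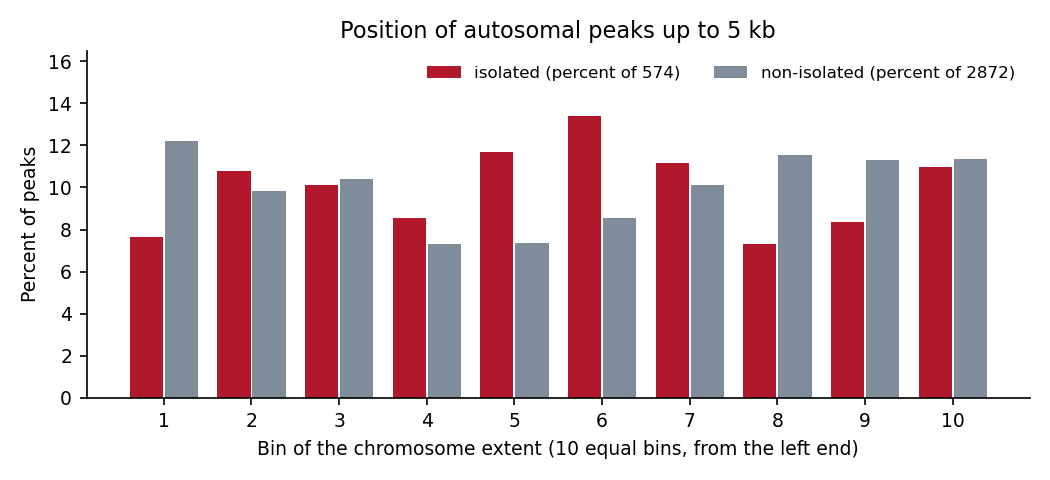
Percent of isolated (574) and non-isolated (2872) autosomal peaks up to 5 kb in each of 10 equal bins of the chromosome extent, from the left end, summed over the 5 autosomes. Isolated peaks have the larger share in bins 4 to 7, with 13.4% against 8.57% in bin 6, and also in bin 2, with 10.8% against 9.85%, and the smaller share in bins 1, 3, 8, 9 and 10.

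Isolated peaks were about as wide as non-isolated ones. Their median width was 2083 bp, with quartiles of 1496 and 3029 bp, against 1992 bp with quartiles of 1433 and 2967 bp for non-isolated peaks. In 52.1% of all pairs of an isolated and a non-isolated peak the isolated one was the wider, where 50% means no difference, and 149 isolated peaks (25.3%) and 705 non-isolated peaks (24.4%) were wider than 3000 bp. The rule caps the width at the same value in both sets, so this compares widths below the cap. Above the cap, 112 of 631 peaks (17.7%) were isolated, close to the 16.9% below it. By chromosome the percent of pairs with the isolated peak wider ran from 48.1% on IV to 54.8% on III over the autosomes and was 39.7% on X. In the 74 windows of 1 Mb with at least 3 peaks of each kind, the median width of the isolated peaks minus that of the non-isolated ones had a median of 52.8 bp and quartiles of -413 and 367 bp, and the isolated peaks were the wider in 39 windows.

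With isolation as defined, scores were also much alike. The median was 159 for isolated peaks, with quartiles of 86.8 and 310, and 165 for non-isolated peaks, with quartiles of 90.5 and 315. Of the isolated peaks, 243 (41.2%) scored above the median of the full list, 196, as did 1241 non-isolated peaks (42.9%) and 42.6% of all peaks up to 5 kb. Scores under 100 were held by 175 isolated peaks (29.7%) and 853 non-isolated peaks (29.5%). In 49.4% of pairs the isolated peak had the higher score. Among peaks at or above the median score, with isolation recomputed, this was 43.7% of pairs. Under the other alternatives it was 48.2% to 50.7%. Within the 74 windows of 1 Mb, 273 of 541 isolated peaks (50.5%) scored above the median of the non-isolated peaks in their own window. Taken window by window, this share had a median of 45.8%. With 1 library, these values describe the list and do not show that the sets are alike beyond it.

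In both sets the score went up with the width, with a Spearman correlation of 0.75 across the 590 isolated and 0.81 across the 2895 non-isolated peaks, which come from 1 library and are not replicates. Within classes of 500 bp of width, 269 of 590 isolated peaks (45.6%) scored above the median of the non-isolated peaks in their class. A share under 50% was not particular to them. Among non-isolated peaks it was 53.0% with a neighbour within 500 bp, and 45.7% to 47.9% in the distance ranges from 501 to 5000 bp. The width class from 3500 to 3999 bp departed most among those with over 5 isolated peaks. There the median score was 374 for 39 isolated peaks and 469 for 183 non-isolated peaks, and 10 of the isolated peaks exceeded the second value. In the adjoining classes the medians were closer, at 351 and 339 from 3000 to 3499 bp and at 497 and 508 from 4000 to 4499 bp for isolated and non-isolated peaks. On chromosome I, 41.1% of the isolated peaks exceeded the median of their width class on that chromosome, and on IV 52.2% did.

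**Figure D5:**
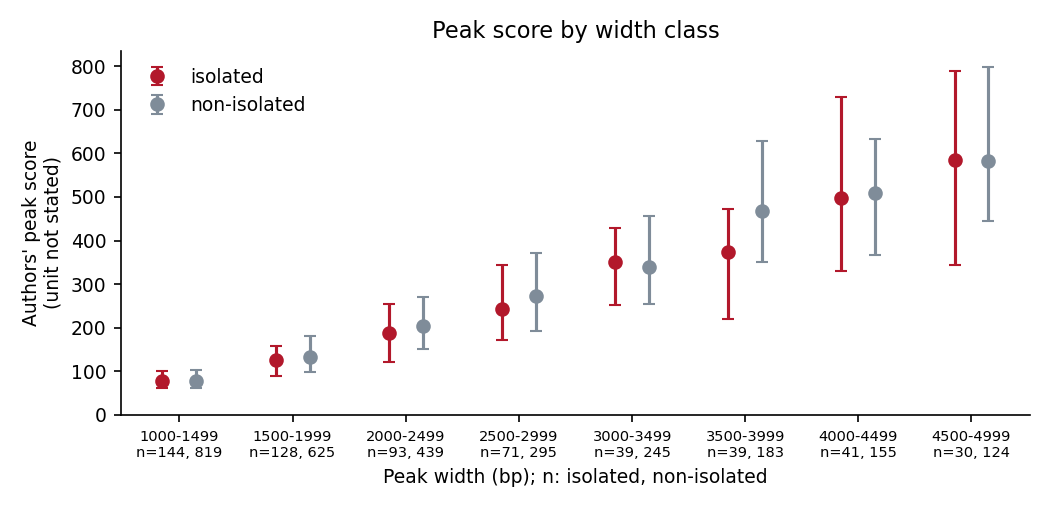
Median score with quartiles (bars) for isolated and non-isolated peaks in 8 width classes of 500 bp, with the number of peaks of each kind under each class; the score is the authors' and has no stated unit. Both sets climb with width and their quartile ranges overlap in every class, and the medians are farthest apart from 3500 to 3999 bp, at 374 for isolated and 469 for non-isolated peaks.

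How far away the next peak was had little relation to score or width. Across the isolated peaks the Spearman correlation of the nearest distance was -0.03 with the score and -0.004 with the width. The 118 isolated peaks with a neighbour at 5001 to 7500 bp had a median score of 173 and a median width of 2066 bp. The 69 with none within 50000 bp had a median score of 157 and a median width of 1932 bp. Among non-isolated peaks, the 1416 with a neighbour within 500 bp had a median score of 174 and a median width of 2063 bp, and the 267 with a neighbour at 2001 to 3000 bp had the lowest median score of any distance class, 134.

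For 237 of the 590 isolated peaks (40.2%) the nearest neighbour was another isolated peak, a share not far from the 35.6% that isolated peaks made up of all loci, and for a further 27 (4.58%) it was an isolated peak over 5 kb. For 274 (46.4%) it was a non-isolated peak up to 5 kb and for 52 (8.81%) a non-isolated peak over 5 kb. Peaks over 5 kb were thus the nearest neighbour of 13.4% of the isolated peaks, and likewise of 13.4% of the non-isolated peaks up to 5 kb. The score of an isolated peak had a Spearman correlation of 0.06 with that of its nearest neighbour, and that of a non-isolated peak one of 0.10. In the order along the chromosomes, 368 isolated peaks (62.4%) stood in runs of 2 or more with no other kind of peak between them, and 222 stood singly between others. This count was not set against another order of the same loci, and nothing is read from it. The longest runs had 8 isolated peaks. One spanned 252 kb on V, at 10521668 to 10773254, and the other 3518 kb on X, at 13794695 to 17312207. A run of 7 spanned 626 kb on V, at 3520763 to 4146743, and a run of 6 spanned 135 kb on I, at 1823857 to 1959135.

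The highest isolated score, 2302, belonged to a peak of 2892 bp on X, at 16929508 to 16932399. It ranked thirteenth in the whole list, and the nearest peak lay 377 kb away. It was the only isolated peak up to 5 kb among the 25 highest scores of the list, where such peaks were 14.3% of all. The list also held the 631 peaks over 5 kb, which the rule leaves out. Their median score was 732 for isolated and 801 for non-isolated ones. The second score among isolated peaks up to 5 kb, 1310, was at 13292250 to 13296745 on I, and 7 non-isolated peaks up to 5 kb scored above it. It measured 4496 bp and had a neighbour at 5436 bp. The third was a peak of 4650 bp on III, at 2202159 to 2206808, with a score of 1138 and 31.7 kb to its nearest neighbour. The 3 differ in how secluded they were, from just past the limit for the peak on I to 377 kb for the peak on X.

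The next 7 scores ran from 1105 down to 963. On I they were at 669228 to 671990 (1105), 10418004 to 10422821 (1031), 8845806 to 8850428 (1030), 6253423 to 6257800 (967) and 3931406 to 3934945 (963). On IV a peak of 2588 bp at 15188060 to 15190647 scored 1029, and on V a peak of 4086 bp at 723938 to 728023 scored 1024 with nothing within 177 kb. Chromosome I held 6 of the 10 highest isolated scores and 21.0% of all isolated peaks. The median score of its isolated peaks was 157, against 159 over all isolated peaks. The highest on II, 902, was at 8696474 to 8700815. In all, 8 isolated peaks (1.36%) and 31 non-isolated peaks up to 5 kb (1.07%) scored over 1000. Of the 100 highest scores among peaks up to 5 kb, 21 were of isolated peaks, which were 16.9% of all peaks of that width. The lowest isolated score, 50.5, belonged to a peak on IV at 832248 to 833444.

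The 3 widest isolated peaks measured 4964 bp at 6853500 to 6858463 on II, 4955 bp at 4730796 to 4735750 on V, and 4952 bp at 6888114 to 6893065 on II. The pair on II were neighbours in the list with 29.7 kb between them. The narrowest measured 947 bp on X (14746650 to 14747596), 967 bp on V (4889699 to 4890665) and 990 bp on I (1958146 to 1959135), with scores of 60.98, 55.6 and 56.0. These narrow peaks scored close to the lowest value in the list.

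The 5 isolated peaks farthest from any other peak were all on X. The most distant, at 9006962 to 9008348, had 597 kb to its nearest neighbour and 1646 kb to the other, with a width of 1387 bp and a score of 68.0. The next, at 13794695 to 13796038, had 566 kb and 4187 kb and a score of 155. The peak at 17309607 to 17312207, the last of the chromosome, lay 377 kb from the highest-scoring isolated peak described above and scored 227. The peak at 14362033 to 14363409 had 360 kb to its neighbour and scored 83.2. On the autosomes the largest distances were on V, at 216 kb for the peak at 3216257 to 3217933 and 207 kb for the peaks at 17308125 to 17312038 and 17518788 to 17519805, which neighboured each other; these 3 were chosen after their values were seen.

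The X chromosome had 16 isolated peaks, 0.92 per Mb, against 6.97 per Mb on the autosomes. Non-isolated peaks numbered 23 on X, 1.33 per Mb, against 34.9 per Mb on the autosomes. The isolated peaks on X were narrow, with a median of 1465 bp, against 1942 bp for the non-isolated peaks there, and their median score was 116, against 146. The isolated peak had the higher score in 50.8% of pairs on X, so the lower median was not matched by a difference in order. Of the 21 X peaks in the first 250 kb, 3 were isolated. They were at 19922 to 21803, 27533 to 28903 and 142586 to 144021, with scores of 119, 93.4 and 490 and with neighbours at 5.73, 5.73 and 11.8 kb. Beyond that tip, 13 of 20 peaks were isolated, and the nearest distances of these 13 ranged from 22.1 to 597 kb with a median of 288 kb.

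Between 1374628 and 2004025 on X lay 4 isolated peaks, with scores of 83.6, 672, 91.3 and 346 in order of position. The right segment of X held 8 peaks in all, and each of the 8 was isolated. Apart from the peak with a score of 2302, these 8 scored between 60.98 and 237. The widest of them, at 15806687 to 15811619, measured 4933 bp and scored 237.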

How the data were processed

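CEC-7 ChIP DNA and input DNA were sequenced from fem-2(b245) adults, and the peak list of the ChIP library was analysed. Peaks were called with MACS on WormBase WS220, per the file headers and the list's source column; the submitters' processing notes name BWA and the build ce10. For versions, read filters and the use of the input as control, nothing was given in the sources used here. Each deposited score is the authors' own value for that peak, with no unit stated.

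Computed from it were widths, edge-to-edge distances to neighbours on the same chromosome, segments and 1 Mb windows by midpoint, and scores within width classes of 500 bp. A peak at a chromosome's end was judged by its only neighbour. Chromosome lengths were not in the list, so the end of the last peak was used. No test was possible with 1 ChIP library. The isolated peaks and all comparisons were chosen with earlier results of these data known. Regions named singly were the 10 highest scores, the 5 most distant, the 3 widest and 3 narrowest, the highest per chromosome, those at the limits and all on X. Alternatives were other distance, width and score limits, merging, and leaving out end peaks or X. The calculation was tested on simulated data. The tools were matplotlib 3.10.9, pandas 2.3.3, scipy 1.17.1, numpy 2.4.6 and Python 3.11.15.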

Additional observations from a re-analysis of the deposited data

How the results depend on the processing

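Of 69 alternative values, 55 stayed inside the 95% binomial (Clopper-Pearson) interval of the value as reported or, for counts and density ratios, within 1.5 times it; the intervals treat peaks as independent, which they are not. The outer share without X, fixed by construction, is not counted, and leaving out X or end peaks changes few peaks, so the tally is no measure of stability. With a distance over 2000 bp there were 1071 isolated peaks, 30.7% of those up to 5 kb, with 21.2% on V and 67.0% of the autosomal ones in the outer segments (non-isolated 72.1%). With a distance over 10000 bp there were 379, or 10.9%. Among the better-scored peaks, with isolation recomputed, 38.3% were isolated and 18.6% of these lay on V; 47.98% were wider and 42.7% scored higher than the median non-isolated peak, 38.7% within width classes, and the highest non-isolated autosomal density was 6.38 times the lowest. After merging peaks within 1000 bp, 36.6% were isolated and 50.8% scored above the median of their width class. The cause was not tested. The density ratio of isolated peaks ranged from 1.30 to 1.59; both density ratios were tried under alternatives after seeing the data. Gene context and base composition were not run. No paired analysis was possible because only 1 library entered the results. Neighbours of an isolated peak that were too weak for the authors' cutoff were not detectable.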
